A study of Solanum lycopersicum x Solanum pennellii and Solanum lycopersicum and Solanum pennellii with 31 samples.

Results

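The loci described here were the most abundant sources of small RNA (sRNA) in tomato seedlings. They were selected on their measured levels. A locus was a stretch of the Heinz genome SL2.50 on which sRNA reads had been clustered, and it was called abundant where it held at least 100 CPM (counts per 1000000 reads, the count over the total of its library's column times 1000000) in each of 5 seedling libraries. This rule kept 447 of 219578 loci, or 0.204%. The libraries came from seedlings aged 2 weeks, and a figure legend of the study calls those of M82 and IL8-3 whole seedlings. There were 2 libraries of M82, a cultivar of Solanum lycopersicum, each from 1 seedling. There was 1 library, from 1 plant, of each of the introgression lines (ILs), namely IL1-1, IL2-5 and also IL8-3, which are M82 plants that carry a homozygous chromosome segment of the wild relative S. pennellii. That segment lies on chromosome 1 in IL1-1, on chromosome 2 in IL2-5 and on chromosome 8 in IL8-3. The M82 libraries carry no segment, and no plant was treated. Since each line was a single plant, the 3 lines served together as the IL group, and a difference between lines cannot be told apart from a difference between plants. The study stated that the labels of the IL libraries had been mixed up in an earlier deposit and were corrected, and the corrected names are used here.

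Plant sRNAs come from several pathways. In RNA-directed DNA methylation, RNA polymerase IV and RDR2 make double-stranded RNA from transposons and repeats, Dicer-like proteins cut it, and the resulting sRNAs, bound by an Argonaute protein, direct cytosine methylation to matching DNA. MicroRNAs come instead from short hairpin transcripts and guide the cleavage or repression of messenger RNAs, while phased sRNAs are cut in register from longer transcripts, and fragments of ribosomal and transfer RNA also enter sRNA libraries. The loci carry no annotation here, so none of them is assigned to any of these classes, and their read lengths and sequences were not analysed here.

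The 447 loci covered 0.260 Mb of the 34.9 Mb in all loci, but held a large share of the reads. They took 28.1% of the 4860695 reads of M82 replicate 1, 33.0% of the 2843012 reads of M82 replicate 2, 36.1% of the 4680913 reads of IL1-1, 40.2% of the 5303281 reads of IL2-5 and 32.9% of the 5688499 reads of IL8-3. The mean was 34.1% ± 4.50 (SD, n = 5). IL2-5 had the highest share and M82 replicate 1 the lowest, and the groups overlapped, because M82 replicate 2 lay just above IL8-3. The mean was 30.5% ± 3.49 (SD, n = 2) in M82 and 36.4% ± 3.70 (SD, n = 3) in the lines. Most of the spread sat in a few loci. The 10 largest took 6.94% of the reads of M82 replicate 1, 11.2% in M82 replicate 2, 13.1% in IL1-1, 15.8% in IL2-5 and 10.6% in IL8-3, whereas the other 437 loci took between 21.1% and 24.4% in every library.

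Levels among the abundant loci were steeply graded. The mean over the 5 libraries was below 500 CPM at 324 loci, between 500 and 1000 CPM at 57 and at least 1000 CPM at 66, of which 7 reached 5000 CPM. The median was 300 CPM (299.6), against 0.664 CPM over all loci. The largest locus alone held 11.2% of the reads of the abundant loci, the 10 largest held 33.9%, and 30 loci were enough to hold 50%. Depth was not limiting at these levels, since the lowest count of any abundant locus in any library was 287, at which counting error alone is 5.90%. Near the rule's limit the choice was arbitrary. Just inside it, the lowest library had 100.2 CPM at Cluster_116001, 100.4 CPM at Cluster_47893 and 100.5 CPM at Cluster_97761. Just outside it, the lowest library had 99.8 CPM at Cluster_213172 and 99.5 CPM at both Cluster_148618 and Cluster_117327.

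The largest locus was Cluster_113389, 108 bp long at ch6:42851773-42851880. It had 17425 CPM in M82 replicate 1, 43005 CPM in M82 replicate 2, 46856 CPM in IL1-1, 42713 CPM in IL2-5 and 41386 CPM in IL8-3. M82 replicate 1 stood apart from the 4 other libraries, so that the M82 seedlings differed from each other by more than the lines did, and the groups overlapped. The runner-up, Cluster_289, 1900 bp long on unplaced sequence, had 14596 and 10504 CPM in the M82 libraries, 14003 CPM in IL1-1, 22936 CPM in IL2-5 and 13043 CPM in IL8-3. Here IL2-5 alone was high.

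Of the 10 largest loci, 3 had every line above both M82 libraries, as did 10.7% of all tested loci. Cluster_143187, 1376 bp at ch8:46953560-46954935, had 7610 and 9336 CPM in M82, 15537 CPM in IL1-1, 21220 CPM in IL2-5 and 11175 CPM in IL8-3. Cluster_196407, 194 bp at ch11:32422960-32423153, had 5912 and 7267 CPM in M82 and, in the same order of lines, 12346, 16117 and 8855 CPM. Cluster_124320, 292 bp at ch7:30150719-30151010, had 3895 and 7541 CPM in M82 and 11553, 12704 and 9504 CPM in the lines. At all 3 the groups did not overlap, but none passed the test across loci given further on. Cluster_143187 was 1.26 to 1.32 times Cluster_196407 in every library, so these may not be separate cases.

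The groups overlapped at the remaining 5 of the 10 largest loci, which were Cluster_54453 (2008 bp on chromosome 3), Cluster_44826 (370 bp on chromosome 2), Cluster_103911 (440 bp on chromosome 6), Cluster_5257 (2756 bp on chromosome 1) and Cluster_152591 (537 bp on chromosome 8). At Cluster_103911, M82 replicate 1 had 2034 CPM and M82 replicate 2 had 6169 CPM, and at Cluster_152591 they had 1988 and 6645 CPM. At both loci all 3 lines lay between the M82 seedlings or, for IL2-5 at Cluster_103911, above them at 7092 CPM. At Cluster_5257 IL2-5 reached 8667 CPM while the other libraries ran from 2569 to 4621 CPM.

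**Figure D1:**
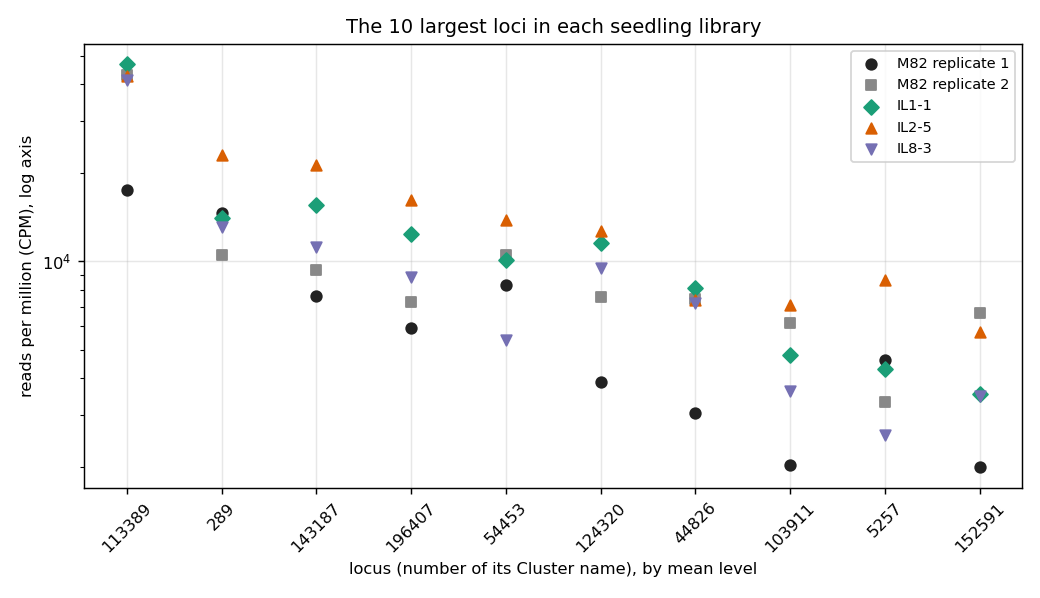
CPM on a log axis of the 10 largest loci, ordered by their mean over the 5 libraries, with 1 point for each library and no error bar, since every line is a single library. M82 replicate 1 lies lowest at 7 of the 10 loci, and at Cluster_113389 it is at 17425 CPM while the other libraries run from 41386 to 46856 CPM.

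The abundant loci were longer than most. Their median length was 317 bp, with quartiles of 182 and 626 bp and a range of 34 to 8380 bp, while the median over all loci was 126 bp and over the 62065 loci with enough reads to be tested 218 bp. A longer locus collects more reads at the same density, so this difference is in part set by a rule on reads per locus. In all, 26 abundant loci were at most 100 bp long, 187 were over 100 and up to 300 bp, 170 were over 300 and up to 1000 bp and 64 were longer than 1000 bp. Loci over 1000 bp were rare in the whole table, with 321 of 219578, and 19.9% of them were abundant, against 0.0305% of loci of at most 100 bp. The 64 long loci held 27.1% of the reads of the abundant loci, and the 26 shortest held 5.38%. Per length the order was the reverse, with a median of 580.2 CPM per 100 bp in the shortest class and 30.3 CPM per 100 bp in the longest. The rule sets this order in part too, since a short locus needs a higher density to reach 100 CPM.

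The longest locus of the whole table was also abundant. Cluster_96932, 8380 bp at ch5:60891650-60900029, had 1422 and 1317 CPM in M82, 1873 CPM in IL1-1, 1497 CPM in IL2-5 and 1715 CPM in IL8-3, so that all lines lay above both M82 seedlings by a small margin. The next longest were Cluster_5214 (5849 bp, chromosome 1), Cluster_108812 (5196 bp, chromosome 6), Cluster_70179 (3947 bp, chromosome 4) and Cluster_199857 (3776 bp, chromosome 11), with means of 1049 to 1940 CPM. The ratio of the highest to the lowest library was 1.52 at Cluster_108812 and 1.58 at Cluster_199857, but 2.31 at Cluster_70179 and 3.61 at Cluster_5214.

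The shortest abundant locus was Cluster_210695, 34 bp at ch12:36510385-36510418, which had 465 and 297 CPM in M82 and 350, 384 and 510 CPM in the lines. Cluster_185393 (40 bp, chromosome 10), Cluster_157741 (45 bp, chromosome 9), Cluster_87934 (52 bp, chromosome 5) and Cluster_71126 (53 bp, chromosome 4) followed. Of these, Cluster_185393 had 172 CPM in M82 replicate 1 against 1083 CPM in M82 replicate 2, and Cluster_87934 had 108 CPM against 663 CPM. At both, M82 replicate 1 was the lowest of the 5 libraries.

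The side on which the lines fell was counted in each length class, beside the other tested loci of the same class. Among the 64 abundant loci over 1000 bp, every line lay above both M82 libraries at 23 (35.9%) and below both at 1 (1.56%). Of the 255 other tested loci of that length, 12.2% lay above and 18.8% below. In the class over 300 and up to 1000 bp, 32 of 170 abundant loci lay above (18.8%, beside 9.97% of the others) and 26 below (15.3%, beside 21.3%). In the class over 100 and up to 300 bp, 36 of 187 lay above (19.3%, beside 10.8%) and 35 below (18.7%, beside 17.9%). Of the 26 at most 100 bp long, 2 lay above (7.69%, beside 11.4%) and 3 below (11.5%, beside 18.5%).

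TMM factors, which set the bulk of loci level between libraries, changed the picture most in the shortest class, so that no steady trend with length is read from these counts. There 7 loci then lay above (26.9%, beside 14.3% of the others) and 1 below (3.85%, beside 15.002%). In the class over 100 and up to 300 bp, 47 lay above (25.1%, beside 14.7%) and 24 below (12.8%, beside 14.4%), and in the class up to 1000 bp, 40 above (23.5%, beside 14.5%) and 15 below (8.82%, beside 16.8%). The longest class had 29 above (45.3%, beside 16.9%) and 1 below (1.56%, beside 14.9%). Against a single M82 library the longest class had 35 above and 5 below without M82 replicate 1 (54.7% and 7.81%, beside 32.5% and 29.4%) and 32 above and 8 below without M82 replicate 2 (50% and 12.5%, beside 19.6% and 36.1%). The length classes were compared after the values had been seen, long loci can be neighbouring pieces of one source, and no test was made.

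**Figure D2:**
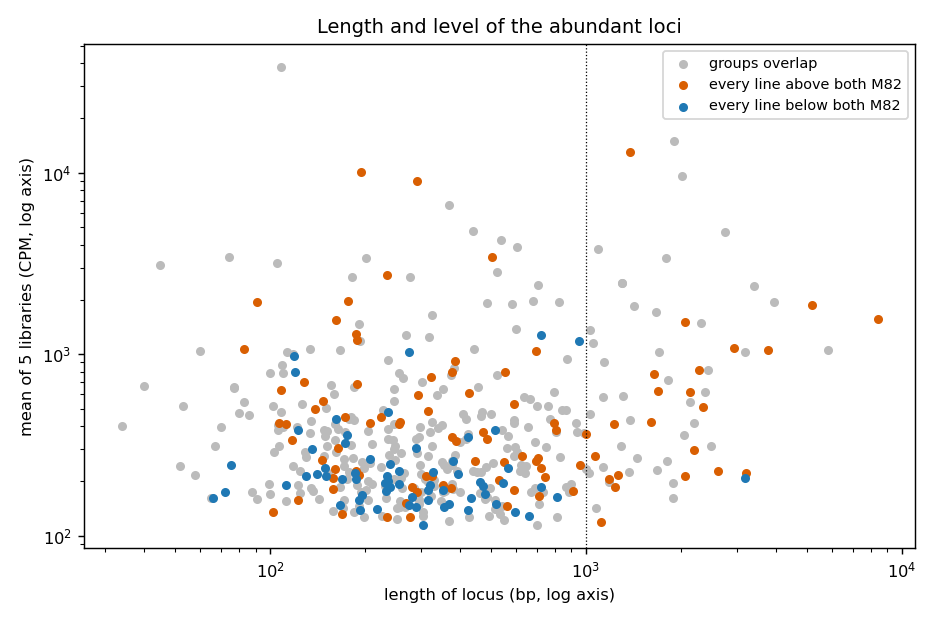
Length in bp and mean CPM over 5 libraries of the 447 abundant loci, both on log axes. Each point is 1 locus, coloured by whether the 3 lines lie above both M82 libraries (93 loci), below both (65 loci) or overlap them, and the dotted line marks 1000 bp, beyond which 23 loci lie above and 1 below.

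Abundant loci lay on every chromosome, but not in proportion to the number of loci there. Chromosome 6 had the most, 56, or 3.27 per 1000 of its loci, and 20.7% of the reads of the abundant loci, of which Cluster_113389 makes up more than any other locus. Chromosome 11 had 47 (3.01 per 1000) and chromosome 1 had 43 (1.74 per 1000). The lowest densities were on chromosome 7, with 22 loci (1.24 per 1000), and on chromosome 8, with 23 (1.29 per 1000). Unplaced sequence held 18 abundant loci, 4.03% of them against 1.78% of all loci. Among the 429 on placed chromosomes, 211 (49.2%) lay in the outermost 10% at either end, compared with 44.7% of all placed loci, where chromosome length was taken as the end of the last locus. No test was made of these shares, because neighbouring loci are not independent.

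Many of them stood close together. Another abundant locus lay within 1 kb of 32, within 10 kb of 79 and within 100 kb of 171. The longest run with gaps of at most 1 kb was on chromosome 5, where Cluster_96932, Cluster_96933, Cluster_96934 and Cluster_96935 filled 14714 bp of the 15183 bp from 60891650 to 60906832. Their summed level was 3657 and 3415 CPM in M82, 5022 CPM in IL1-1, 4325 CPM in IL2-5 and 4682 CPM in IL8-3, with all 3 lines above both seedlings. A run of 3 loci on chromosome 3, from 33136360 to 33140550, summed to 8947 and 11225 CPM in M82 and to 10859, 14851 and 5885 CPM in the lines. Another of 3, on chromosome 6 from 11534116 to 11538026, summed to 1257 and 1299 CPM in M82 and to 1594, 2474 and 1308 CPM in the lines. Where loci adjoin in this way they may be pieces of one source and should not be counted as independent.

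The densest places were in the interior of chromosomes 11 and 6. Between 18 and 19 Mb of chromosome 11 there were 11 abundant loci among 120 (9.17%), and 10 of them lay within 145 kb, from 18595205 to 18740656. Those 10 summed to 10689 and 9008 CPM in M82, to 7496 CPM in IL1-1, to 15231 CPM in IL2-5 and to 7090 CPM in IL8-3. IL2-5 was thus highest and IL8-3 lowest in the sum. Of the 11 loci, 7 were highest in IL2-5 (4 of them by over 1.5-fold) and 7 lowest in IL8-3. Between 11 and 12 Mb of chromosome 6, 8 of 96 loci (8.33%) were abundant, of which 6 were highest in IL2-5 and 4 lowest in IL8-3. On chromosome 1, 6 loci between 1843796 and 1903259 summed to 9253 and 6872 CPM in M82 and to 9290, 18482 and 6785 CPM in the lines. None of these places lies in the segment of IL2-5, and the last lies in that of IL1-1.

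An abundant locus was not a steady one. The ratio of its highest to its lowest library had a median of 2.21, quartiles of 1.73 and 2.95 and a range of 1.11 to 15.3. It exceeded 2 at 264 loci (59.1%), 3 at 106 (23.7%) and 5 at 26 (5.82%). A ratio over 5 libraries grows with the number of libraries and covers both replicates and genotypes. The rule itself narrows it, because a locus that fell below 100 CPM in any library was left out.

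Much of this spread was between seedlings of the same genotype. Between the M82 seedlings the median fold difference was 1.47, and 97 loci (21.7%) differed by more than 2-fold, 32 of them higher in replicate 1 and 65 in replicate 2. Between lines the median fold difference was smaller, 1.30 for IL1-1 and IL2-5, 1.25 for IL1-1 and IL8-3 and 1.23 for IL2-5 and IL8-3. Pearson's r of log2 CPM over the 447 loci was 0.81 for the M82 pair and 0.89 to 0.93 for pairs of lines, as a description over loci that share libraries and in part neighbours. The coefficient of variation had a median of 27.1% over the 2 M82 libraries and 19.3% over the 3 lines. M82 replicate 2, the shallowest library, was the lowest of the 5 at 122 loci and the highest at 124. It was more than 1.5-fold above all other libraries at 48 loci, compared with 25 for IL2-5, 13 for M82 replicate 1, 8 for IL8-3 and 4 for IL1-1. M82 replicate 1 was more than 1.5-fold below all others at 33 loci, M82 replicate 2 at 25, IL2-5 at 10, IL8-3 at 9 and IL1-1 at 4.

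The widest range was at Cluster_101809, 193 bp at ch6:1551716-1551908. It had 1101 and 1394 CPM in M82, 2308 CPM in IL1-1, 151 CPM in IL2-5 and 957 CPM in IL8-3, so that IL2-5 alone was low. Cluster_186565, 74 bp at ch10:64128425-64128498, had 10656 CPM in M82 replicate 1, 2191 CPM in M82 replicate 2 with 943 CPM in IL1-1, 2589 CPM in IL2-5 and 717 CPM in IL8-3. At this locus M82 replicate 1 stood far above the other libraries, which still ran from 717 to 2589 CPM. Cluster_103877, 771 bp on chromosome 6, showed the same form, with 1206 CPM in M82 replicate 1, 125 CPM in replicate 2 and 190, 513 and 159 CPM in the lines. At the other members of the widest 5, Cluster_194797 and Cluster_105499, the ratio was 14.0 at the first and lower at the second, and the groups did not overlap at either.

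The steadiest loci were modest in level. Cluster_23524, 517 bp at ch1:89395440-89395956, had 162 and 151 CPM in M82 and 167, 150 and 151 CPM in the lines, a ratio of 1.11. Cluster_56406 and Cluster_53407, both on chromosome 3, Cluster_113112 on chromosome 6 and Cluster_150507 on chromosome 8 followed, with ratios up to 1.22 and means of 114 to 138 CPM.

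The lines were then compared with M82 across all loci, with edgeR's quasi-likelihood test and Benjamini-Hochberg adjustment over the 62065 loci tested, which included all 447 abundant ones. The rule used every library and asked for a minimum level in both groups. It therefore removed the loci that were lost in either group, and the counts below describe the abundant loci without supporting anything about how they were chosen. The test set the difference between the groups against a pooled spread. Since the lines were 1 plant each, that spread mixes differences between M82 seedlings with differences between lines. The p-values therefore speak only of these libraries.

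No abundant locus passed an adjusted p of 0.05. Of all loci tested, 2 passed higher in the lines (0.00322%) and 2 lower (0.00322%). At an unadjusted p below 0.05, 35 abundant loci (7.83%) were higher and 17 (3.80%) lower, beside 4.88% and 5.48% of all tested loci. The less strict likelihood ratio test of edgeR called 6 abundant loci higher and 1 lower, where 0.469% and 0.508% of all tested loci were called. DESeq2 called 14 higher and 5 lower, where 0.837% and 0.375% of the 19475 loci to which it gave an adjusted p were called. The cause of the difference between the tools was not tested.

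Without a test, every line lay above both M82 libraries at 93 abundant loci (20.8%, beside 10.7% of all tested loci) and below both at 65 (14.5%, beside 19.0%). With CPM scaled by TMM factors the counts were 123 (27.5%, beside 14.7%) and 41 (9.17%, beside 15.2%), so that the share above among loci that did not overlap went from 58.9% to 75%. Against a single M82 library, the counts were 157 above (35.1%, beside 32.2% of all tested loci) and 145 below (32.4%, beside 32.5%) without M82 replicate 1, so that the abundant loci then stood near the background. Without M82 replicate 2 they were 176 above (39.4%, beside 20.3%) and 106 below (23.7%, beside 40.8%). Plain CPM set the median log2 ratio of lines to M82 over all tested loci at -0.11, while TMM factors set it at -0.01. The median over the abundant loci was 0.10 and 0.20 on the same scales, about equally far above all tested loci on each.

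At 8 abundant loci (1.79%, beside 1% of all tested loci) every line was more than 2-fold above both M82 libraries. Cluster_66905, 128 bp at ch4:423111-423238, had 168 and 134 CPM in M82 as against 1232 CPM in IL1-1, 1212 CPM in IL2-5 and 749 CPM in IL8-3. Its log2 fold change of 2.94 (SE 0.49) was the largest upward one, at an adjusted p of 0.346 in the quasi-likelihood test of edgeR. The adjusted p in the less strict likelihood ratio test was 2.8e-04. Cluster_105499, 177 bp at ch6:25283156-25283332, had 647 and 409 CPM in M82 and 3195, 1083 and 4494 CPM in the lines, and its log2 fold change was 2.56 (SE 0.65). There IL2-5 was less than 2-fold above M82 replicate 1, so this locus is not among the 8.

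Cluster_19614, 83 bp at ch1:82623958-82624040, had 383 and 227 CPM in M82 and 1207, 1543 and 1964 CPM in the lines. It lies in the segment of IL1-1, and its level there was the lowest of the 3 lines. Cluster_113712, 162 bp at ch6:43416443-43416604, had 523 and 390 CPM in M82 and 1861, 1668 and 3249 CPM in the lines. Cluster_177894, 376 bp at ch10:39302223-39302598, had 212 and 259 CPM in M82 and 1238, 1594 and 698 CPM in the lines. The log2 fold changes of these 3 loci were 2.49, 2.40 and 2.44, and each had an adjusted p of 0.424 in the quasi-likelihood test. In the less strict likelihood ratio test the adjusted p was 0.0030, 0.0063 and 0.019, in the same order. At Cluster_210788 (693 bp, chromosome 12), Cluster_160734 (91 bp, chromosome 9), Cluster_201016 (2344 bp) and Cluster_202032 (1646 bp), the last pair both on chromosome 11, the mean of the lines was 2.53-fold to 4.40-fold that of M82.

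Every line was more than 2-fold below both M82 libraries at 5 abundant loci (1.12%, beside 1.70% of all tested loci). The widest difference was at Cluster_194797, 954 bp at ch11:17960309-17961262. Its counts were 9818 and 8780 in M82 against 1193 in IL1-1, 1735 in IL2-5 and 1255 in IL8-3. As CPM these were 2020 and 3088 against 255, 327 and 221, with no overlap and a 9.55-fold higher mean in M82. The log2 fold change was -3.16 (SE 0.47), with an adjusted p of 0.242 in the quasi-likelihood test of edgeR, the lowest of any abundant locus, and 7.0e-06 in its likelihood ratio test.

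The other loci on this side changed less and were very even among the lines. Cluster_98235, 567 bp on chromosome 5, had 314 and 492 CPM in M82 and 125, 118 and 132 CPM in the lines. Cluster_185406, 289 bp on chromosome 10, had 354 and 680 CPM in M82 and 167, 159 and 164 CPM in the lines. Cluster_101788 on chromosome 6 and Cluster_65031 on chromosome 3 had means of 652 and 603 CPM in M82 and of 202 and 194 CPM in the lines. Cluster_201886, 395 bp on chromosome 11, had a log2 fold change of -1.58 but fell short of the 2-fold rule in M82 replicate 1, with 248 CPM there against 109 to 128 CPM in the lines. Levels near 100 CPM in the lines stand close to the limit of the rule, below which a locus would not have been described.

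**Figure D3:**
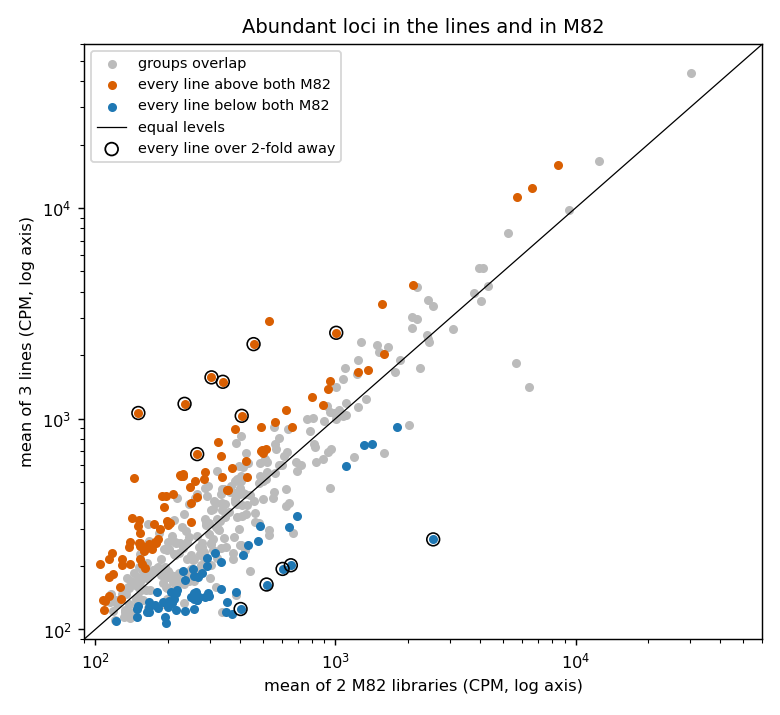
Mean CPM of the 3 lines against the mean of the 2 M82 libraries for the 447 abundant loci, on log axes with the line of equal levels. Circles mark the 13 loci at which every line was more than 2-fold away from both M82 libraries, 8 above (1.79%, beside 1% of all tested loci) and 5 below (1.12%, beside 1.70%). Cluster_194797 lies farthest below, at 2554 CPM in M82 and 268 CPM in the lines.

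The abundant loci were then set against the segments from S. pennellii, where a line differs from M82 by its genotype. The methods place them at 1 to 86 Mb of chromosome 1 in IL1-1, at 44 to 54 Mb of chromosome 2 in IL2-5 and from 61 Mb of chromosome 8 to its end in IL8-3. Inside them lay 37 abundant loci, 23 in the segment of IL1-1, 6 in that of IL2-5 and 8 in that of IL8-3. In its own segment the median log2 ratio of the line to the M82 mean was -0.37 for IL1-1, -1.78 for IL2-5 and -0.17 for IL8-3. In the segment of IL1-1, the median was 0.60 in IL2-5 and -0.04 in IL8-3. In the segment of IL2-5, it was 0.47 in IL1-1 and -0.11 in IL8-3. In the segment of IL8-3, it was -0.19 in IL1-1 and 0.02 in IL2-5, so that IL8-3 did not stand apart there, and only IL2-5 was clearly low in its own segment. For the 23 loci in the segment of IL1-1 the median moved to 0.055 when M82 replicate 2 alone was the reference, so no direction is given for them. All reads were mapped to the Heinz genome, and how far differences in sequence lowered the counts in a wild segment was not tested.

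In the segment of IL2-5, 5 of the 6 abundant loci were lower in IL2-5 than in both M82 seedlings. In its own segment IL1-1 was below both at 7 of 23 loci and above both at 8. IL8-3 was below both at 3 of 8 and above both at 1. No such count for a single line was taken over all tested loci. Cluster_43969, 270 bp at ch2:50905476-50905745, had 841 and 1842 CPM in M82, 2042 CPM in IL1-1, 296 CPM in IL2-5 and 1365 CPM in IL8-3. Cluster_43972, 353 bp at ch2:50909025-50909377, had 419 and 948 CPM in M82, 1025 CPM in IL1-1, 141 CPM in IL2-5 and 696 CPM in IL8-3. Cluster_45677, 109 bp at ch2:53947707-53947815, had 756 and 1629 CPM in M82, 912 CPM in IL1-1, 260 CPM in IL2-5 and 803 CPM in IL8-3. At all 3, IL2-5 was the lowest library by a wide margin. Cluster_43969 was 1.94 to 2.09 times Cluster_43972 in every library and lay within 10 kb of it, so they may not be separate sources. The exception was Cluster_44826, which had 3034 and 7413 CPM in M82, 8115 CPM in IL1-1, 7397 CPM in IL2-5 and 7206 CPM in IL8-3.

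Single loci in the other segments were low in their line as well. In IL1-1 these were Cluster_19878 (log2 ratio -1.96), Cluster_16721 (-1.60) and Cluster_5208 (-1.19). The fitted log2 change over all lines was -0.75, 0.07 and -0.63 at these loci, in the same order. Summed with its neighbour Cluster_5207, Cluster_5208 had 974 and 395 CPM in M82 and 457 CPM in IL1-1. In that sum the M82 seedlings differed widely and IL1-1 lay between them. In IL8-3, Cluster_152520, 150 bp at ch8:64608267-64608416, had 607 and 388 CPM in M82, 791 CPM in IL1-1, 586 CPM in IL2-5 and 146 CPM in IL8-3. The next lowest in that segment were Cluster_151917 and Cluster_152591, at log2 ratios of -0.52 and -0.31. IL8-3 did not stand apart at these, since IL1-1 was at -0.66 and -0.29.

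The rule hid the strongest cases, because a locus lost in one line is not abundant in every library. Loci over 100 CPM in all libraries but one numbered 50 for M82 replicate 1, 72 for M82 replicate 2, 37 for IL1-1, 35 for IL2-5 and 28 for IL8-3. Many fell only a little short. Their median in the library below the limit was 80.0 CPM for M82 replicate 1 and 75.4 CPM for M82 replicate 2. It was 21.4 CPM for IL1-1, 70.5 CPM for IL2-5 and 76.2 CPM for IL8-3. Of the 37 below 100 CPM only in IL1-1, 21 lay in its own segment. In IL2-5 the share was 16 of 35 and in IL8-3 6 of 28. The segments differ in size, with 17051 of all 219578 loci in that of IL1-1, 5648 in that of IL2-5 and 3175 in that of IL8-3. Of the loci below 100 CPM only in IL2-5 or only in IL8-3, 0 and 1 lay in the segment of IL1-1. In their own segments these loci had a median of 2.14 CPM in IL1-1 beside 258 CPM as the median of their means in the other libraries, 29.0 beside 207 CPM in IL2-5 and 5.80 beside 170 CPM in IL8-3. These levels were used to pick the loci and are a description. None had 0 reads in its line.

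Some of them were well above the limit in the other libraries. Cluster_13339, 1171 bp at ch1:64061550-64062720, had 704 and 705 CPM in M82, 1.28 CPM in IL1-1, 823 CPM in IL2-5 and 1091 CPM in IL8-3. Its neighbour Cluster_13338, 2309 bp, had 805 and 641 CPM in M82, 1.92 CPM in IL1-1, 701 CPM in IL2-5 and 835 CPM in IL8-3. Cluster_151346, 73 bp at ch8:62847893-62847965, had 1903 and 1616 CPM in M82, 2041 CPM in IL1-1, 2476 CPM in IL2-5 and 7.91 CPM in IL8-3. In the segment of IL2-5 the drop was shallower, as at Cluster_42656, with 98.4 CPM in IL2-5 and 394 to 968 CPM elsewhere. These loci were named because of their values.

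**Figure D4:**
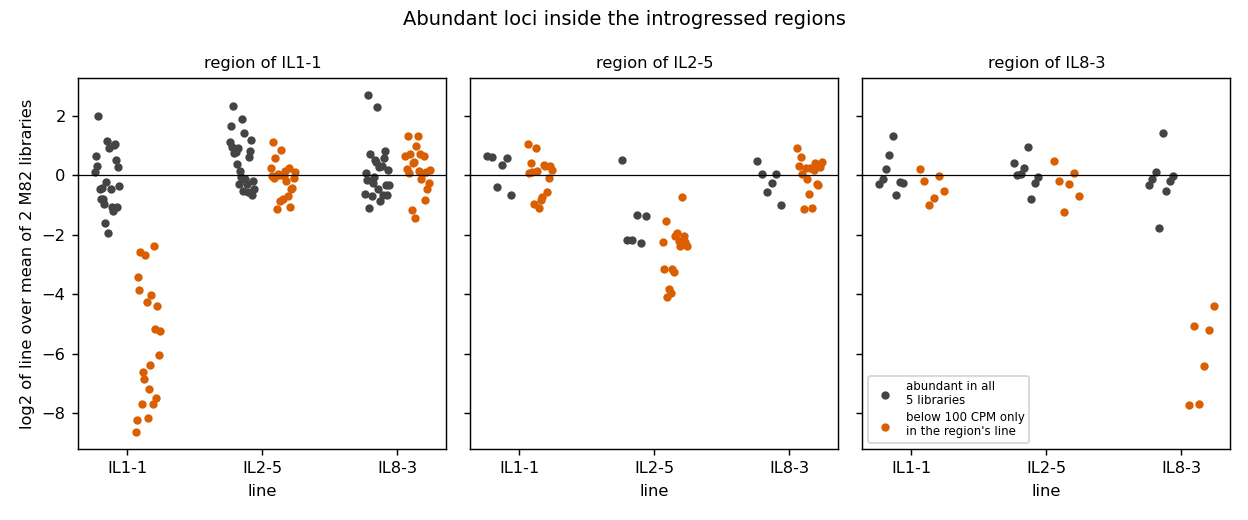
Log2 ratio of each line to the mean of the 2 M82 libraries (0.5 CPM added to both) for loci in the 3 segments, 1 panel per segment and 1 point per locus. Dark points are the 23, 6 and 8 loci abundant in all libraries, and orange points the 21, 16 and 6 loci that were below 100 CPM only in the line that carries the segment and were chosen for that. In the other lines the orange points lie on both sides of 0.

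Some abundant loci rose and fell together almost exactly. For every one of the 99681 pairs, the ratio of CPM between the members was taken in each library, and at 7 pairs of 8 loci the ratio varied by at most 5% over the 5 libraries. This search was made after the values had been seen and has no test. Cluster_113389 on chromosome 6, the largest locus, was between 5.74 and 5.80 times Cluster_44826 on chromosome 2 in all 5 libraries, although the level of each changed 2.69-fold and 2.67-fold. Cluster_44826 was in turn 2.48 to 2.53 times Cluster_64927 at ch3:67666877-67667153, and Cluster_64927 was 2.15 to 2.25 times Cluster_34455 on chromosome 2. Together these 4 loci took 2.22% of the reads of M82 replicate 1, 5.47% of M82 replicate 2, 5.97% of IL1-1, 5.44% of IL2-5 and 5.28% of IL8-3. M82 replicate 1 was the low library for all 4. Among them is Cluster_44826, the locus in the segment of IL2-5 that was not low in IL2-5.

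A pair on other chromosomes behaved in the same way. Cluster_143187 on chromosome 8 was 1.26 to 1.32 times Cluster_196407 on chromosome 11, and these were the 2 largest loci with every line above both M82 libraries. Cluster_117830 on chromosome 7 was 4.08 to 4.28 times Cluster_144568 on chromosome 8. With the limit widened to 10%, 40 pairs of 56 loci qualified, of which 33 joined different chromosomes. Whether such loci share reads through near-identical sequence was not tested, and their single levels and positions are uncertain for that reason. If they do, they do not count as separate loci in the numbers given above.

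**Figure D5:**
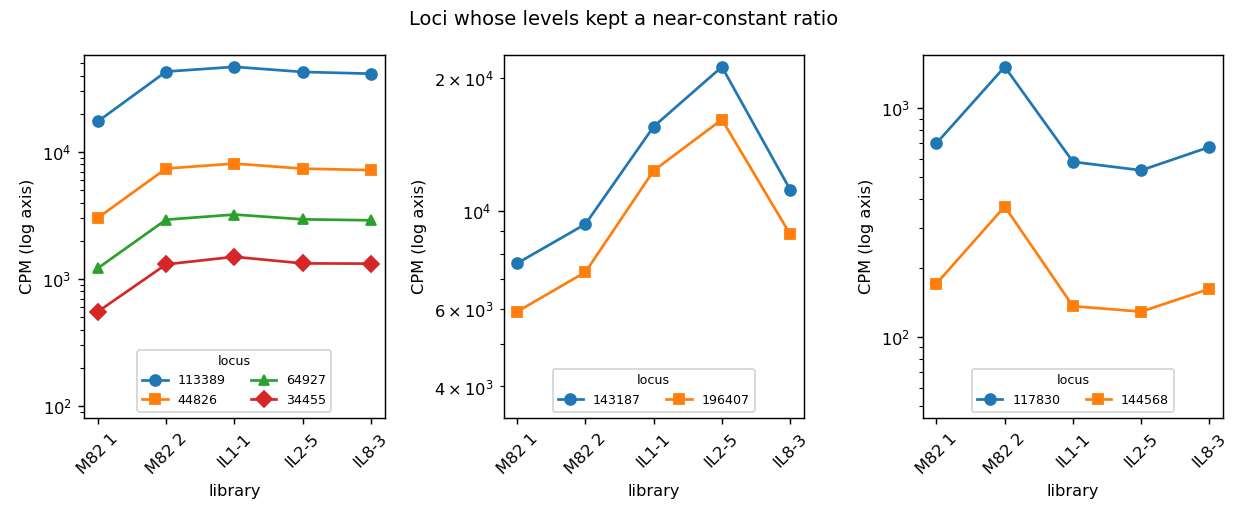
CPM on log axes in the 5 libraries of the 8 loci whose ratios varied by at most 5%, in 3 groups of 4, 2 and 2 loci, with lines joining the points of a locus (Cluster_113389 to Cluster_34455, within the first group, is just over that limit). Parallel lines mean a constant ratio, such as 5.74 to 5.80 between Cluster_113389 and Cluster_44826.

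None of the 447 abundant loci overlapped H06, the tomato locus whose paramutation the study followed, or any of the other 17 regions it examined as candidates. Among these 18 regions the nearest approach of an abundant locus was 38.8 kb, from Cluster_167715 to a region with less methylation in the lines (Hypo5). The rule asks for at least 100 CPM in both M82 libraries. The study reports no sRNAs at H06 in M82, so H06 could not have been abundant here. The abundant loci also cover only 0.260 Mb, so the lack of overlap with the other regions is a description and nothing is concluded from it.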

How the data were processed

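The authors mapped the seedling sRNA libraries to the Heinz genome SL2.50 and clustered them with ShortStack v3.3.3 at its defaults. The deposited values are raw read counts per locus. How reads that map to several places were assigned is not given in the sources used here beyond that. The submitters' notes also name Trim Galore and Bowtie 1.1.1. CPM was computed over column totals, 2843012 to 5688499 reads. Intervals and errors given for counts cover counting error only. The H06 tables, with 24 columns of values, were not used.

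The lines were compared with M82 with R 4.3.3 and edgeR 4.0.16 (TMM factors after filterByExpr, quasi-likelihood test, Benjamini-Hochberg adjustment, threshold 0.05), fitted on all loci. The alternatives were DESeq2 1.42.0 without shrinkage, the likelihood ratio test, other scalings and filters, and leaving out each library. A pseudocount of 0.5 CPM was used in log2 ratios to M82. Coordinates are 1-based and from the deposited locus names.

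The abundant loci, the length classes and the lists were chosen with earlier results of these data known. Named loci were the 10 largest, the 5 longest and 5 shortest, the 5 with the widest and 5 with the narrowest range, the 3 lowest members in each line's own segment, up to 5 in each direction with the largest fitted change and no overlap of groups, the 3 nearest the limit on each side, and the 3 longest runs with gaps of at most 1 kb. Loci named beyond this rule were chosen after their values were seen. Among them were the 13 over 2-fold away in every line, the loci in near-constant ratio and those below 100 CPM only in 1 line.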

Additional observations from a re-analysis of the deposited data

Results flagged for a closer look

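At 8 abundant loci the lines moved in opposite directions from M82, with 1 line more than 1.5-fold above both M82 libraries and another more than 1.5-fold below both. Each line is 1 library, so the difference between lines was not tested. The widest was Cluster_101809, where IL1-1 had 15.3 times the level of IL2-5. IL1-1 was also the high line and IL2-5 the low line at Cluster_90115, with a ratio of 3.91. At Cluster_165488, IL1-1 had 2.70 times the level of IL8-3. At the remaining 5 loci IL2-5 was the high line and IL8-3 the low one, with ratios of 4.23 at Cluster_976, 3.61 at Cluster_5214, 3.42 at Cluster_148137, 3.13 at Cluster_93405 and 2.86 at Cluster_194899. Only Cluster_5214 lies in one of the segments, that of IL1-1. In all, 76 of the 447 loci had 1 line above and another below both M82 libraries by any margin. Neither the 8 nor the 76 was set beside a count over all tested loci, so neither is read as a trait of the abundant loci.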

How the results depend on the processing

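A limit of 50 CPM gave 1099 loci with 41.5% of the reads and a median length of 308 bp, and a limit of 200 CPM gave 192 loci with 28.3% and 355.5 bp. TMM-scaled CPM gave 441 loci. Leaving out 1 library at a time gave 475 to 519 loci, with 33.3% to 36.5% of the reads. Without the 10 largest loci the share was 25.5%, and without the segments the median length was 316.5 bp. The median highest-to-lowest ratio was 2.34 with TMM-scaled CPM and 1.78 to 2.10 with 1 library left out, lowest without M82 replicate 2.

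Loci called higher and lower in the lines over the whole table, 2 and 2, became 42 and 32 with no filter on low counts, 291 and 315 by the likelihood ratio test, 163 and 73 by DESeq2, and 15 and 9 without the segments. With 1 library left out they were 0 to 2 higher and 0 lower. Abundant loci called higher and lower, 0 and 0, became 1 and 1 with no filter, 6 and 1 by the likelihood ratio test and 14 and 5 by DESeq2, and were 0 and 0 without the segments and with any 1 library left out. At the 15 loci named for their change, all 149 fits under other settings kept the sign. These loci were picked for large changes with no overlap of the groups, so a change of sign was hardly possible. The kept sign is therefore no support for them.

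The median log2 ratio of IL1-1 in its own segment turned from -0.37 to 0.055 against M82 replicate 2 alone, and those of IL2-5 and IL8-3 kept their sign. Further alternatives were added after the data had been seen. With TMM-scaled CPM, 41 abundant loci lay below both M82 libraries in every line in place of 65. With 1 library left out, 110 to 176 lay above and 83 to 145 below. The highest values came when a single M82 library remained (176 above without M82 replicate 2, 145 below without M82 replicate 1). Such counts can only rise when fewer libraries have to agree. Over all tested loci, 32.2% lay above and 32.5% below without M82 replicate 1. Without M82 replicate 2 these shares were 20.3% and 40.8%, and none was taken with a line left out. Among abundant loci over 1000 bp, 23 above and 1 below became 32 to 35 above and 5 to 8 below with 1 M82 library. Of the other tested loci of that length, 32.5% lay above and 29.4% below without M82 replicate 1. Without M82 replicate 2 these shares were 19.6% and 36.1%. The pairs in near-constant ratio rose from 7 to 40 with the wider limit. Other causes of these changes were not tested.

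No paired analysis was possible because the lines carry no replicate number in the labels and each is 1 library.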
